A study of Mus musculus with 16 samples.

Results

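Transcripts of 35 genes that build the contacts between neighbouring colon epithelial cells were followed in sorted goblet cells and in the remaining epithelium of the mouse distal colon. The set was a fixed list of gene symbols, made up of 8 claudins, 5 other membrane proteins of tight junctions, 5 tight junction scaffolds and polarity proteins, 6 adherens junction genes, 8 desmosome genes and 3 further adhesion molecules. All 35 were found among the 21442 genes of the count table, and all 35 passed the filter on low counts that left 12915 genes for testing.

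Tight junctions close the space between epithelial cells near their apical surface. Claudins are the membrane proteins that set what can pass: some form sealing strands, whereas Cldn2 and Cldn15 form channels for small cations and water. Adherens junctions hold cells together through cadherins, which bind the actin cytoskeleton by way of catenins, and desmosomes tie the keratin filaments of adjoining cells to each other.

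RedMUC298trTg reporter mice aged 6–8 weeks gave 4 groups of sorted cells, with 4 libraries in each. Goblet cells (GC) were live cells sorted for mCherry, and the other epithelial cells (EC, labelled Colonocytes) were live cells without it. WT_GC and WT_EC came from the reporter strain, and SpdefKO_GC and SpdefKO_EC from the same reporter strain labelled as lacking Spdef, a transcription factor of goblet cell maturation. Every group therefore carried the reporter transgene, and the sources used here do not say which part of Spdef the allele removes or whether animals were pooled.

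Libraries held 10085637–17111987 gene counts. Levels are CPM (read counts per 1000000 counts of the library, with library sizes scaled by TMM factors), as mean ± SD with n = 4. In lists of single libraries the order is always WT_EC 10, 12, 14 and 17, WT_GC 9, 11, 13 and 18, SpdefKO_EC 4, 6, 8 and 20, and SpdefKO_GC 3, 5, 7 and 19. A gene is said to have risen or fallen where the edgeR quasi-likelihood test gave an adjusted p below 0.05 (Benjamini-Hochberg, over all 12915 genes); log2 changes are given ± SE. Spdef itself was not reduced in the libraries labelled SpdefKO_GC (370.3 ± 62.2 CPM, against 296 ± 17.7 CPM in WT_GC; edgeR adjusted p = 0.116), so the genotype rests on the labels and SpdefKO means libraries so labelled. Markers followed the sort: 12 of 12 goblet cell markers were higher in GC than in EC in both genotypes. Colonocyte markers were lower in GC for 13 of 14 genes in both genotypes, the exception being Guca2b, the uroguanylin gene.

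Of the promoters of these genes, 4 are shown because their genes mark patterns described further on. Cldn4 changed most between genotypes in goblet cells, and Pard6b was among the genes most reduced in goblet cells. Epcam was called lower in goblet cells labelled SpdefKO, a small change whose call was lost on leaving out most single libraries. Cldn15 was the claudin most enriched in goblet cells. Each promoter shown is the run of 250 bases before the start site, 5′ to 3′ on the strand of the gene, from RefSeq on GRCm38.p6. For Cldn15 the stretch shown lies inside the gene as drawn by GENCODE, which begins upstream at 136966616, and that earlier start is not shown. Capitals mark CAGGTG on either strand (read as CACCTG on the other), the E-box letters recognised by Snail and Zeb repressors of epithelial genes.
Cldn4 (chr5:134946935-134947184, minus strand): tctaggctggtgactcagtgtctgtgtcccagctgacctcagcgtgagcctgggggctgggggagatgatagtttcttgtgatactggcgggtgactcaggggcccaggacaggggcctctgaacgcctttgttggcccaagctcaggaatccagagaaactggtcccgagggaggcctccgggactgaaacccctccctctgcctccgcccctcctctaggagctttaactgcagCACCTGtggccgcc
Pard6b (chr2:168080754-168081003, plus strand): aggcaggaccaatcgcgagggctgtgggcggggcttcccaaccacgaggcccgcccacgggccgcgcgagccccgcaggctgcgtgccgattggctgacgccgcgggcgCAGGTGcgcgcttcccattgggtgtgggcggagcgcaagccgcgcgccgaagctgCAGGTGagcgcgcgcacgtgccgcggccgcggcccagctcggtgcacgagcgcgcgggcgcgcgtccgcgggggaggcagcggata
Epcam (chr17:87635729-87635978, plus strand): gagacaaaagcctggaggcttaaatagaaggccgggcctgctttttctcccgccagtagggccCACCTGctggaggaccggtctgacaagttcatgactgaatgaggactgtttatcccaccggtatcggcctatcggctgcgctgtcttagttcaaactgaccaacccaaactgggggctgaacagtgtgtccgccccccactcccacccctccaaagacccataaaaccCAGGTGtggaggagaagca
Cldn15 (chr5:136967619-136967868, plus strand): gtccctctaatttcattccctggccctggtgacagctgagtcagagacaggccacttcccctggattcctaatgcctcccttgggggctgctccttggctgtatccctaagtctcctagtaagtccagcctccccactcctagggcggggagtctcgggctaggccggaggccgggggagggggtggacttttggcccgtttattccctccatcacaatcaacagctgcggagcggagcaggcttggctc
RefSeq windows of 300 bases (250 before and 50 after a start site) were found for 22 of the 35 genes, 31 windows in all, some of which overlap. E-box letters occurred in 15 of these windows, in 12 genes, a share of 48.4%, and in 20.2% of all 32851 windows. The windows of the junction genes also had more G and C, with a mean of 61.2% against 53.8%. Grainyhead-like letters (AACCNGTT or AACNGGTT, both strands) were present in 1 of the 31 windows, that of Cgn, and in 2.09% of all windows. Spdef and its nearest relatives bind DNA around a GGAT core; the letters CCGGAT (both strands) were in 1 of the 31 windows, that of Tjp1, and in 6.04% of all windows. These matches describe letters in the windows and were not tested against binding.

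Epcam, an adhesion molecule of simple epithelia that binds and stabilises claudins, was the most abundant of the 35 transcripts per length of exon in every group. Per kb of exon it stood at 1044 ± 37.5 CPM in WT_EC and 696 ± 26.3 CPM in WT_GC. Cldn3, a sealing claudin, was next, at 639 ± 54.1 and 412 ± 30.2 CPM per kb. Cdh1 (E-cadherin, the main adherens junction cadherin) held the next place in WT at 391 ± 15.4 CPM per kb in WT_EC and 222 ± 8.97 in WT_GC. In WT_EC it was followed by Ceacam1, an adhesion and signalling molecule of the carcinoembryonic antigen family, at 368 ± 23.3 CPM per kb and Cldn7, a basolateral claudin partner of Epcam, at 342 ± 5.45. Between neighbours in this run of 3 genes the WT_EC means differed by less than the sum of their SDs. At the bottom, Ppl (periplakin), a plakin that links desmosomes to keratin, was at 3.05 ± 0.275 CPM per kb in WT_EC and 2.53 ± 0.187 in WT_GC, and Pard3, a polarity scaffold, at 7.99 ± 0.201 and 5.98 ± 0.509.

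Goblet cells of the reporter mice were compared with the other epithelial cells to ask how their junctions differ at the RNA level. Most junction transcripts were lower in goblet cells: 29 of 35 fell in WT_GC relative to WT_EC, 3 rose, and 3 did not pass the test. Among all genes tested 61.2% were called in this comparison, 30.1% as lower and 31.0% as higher, so the share of lower junction genes was well above the background. The list was chosen with earlier results of these data known, so this excess is a description and no independent test. The median log2 change was -0.80 for the 35 genes and 0.051 for all genes tested. The junction genes are abundant (median level 303 CPM against 27.3 CPM over all genes tested); among the 7541 genes at or above the level of the lowest of them, 65.9% were called, 33.5% as lower and 32.4% as higher. CPM ranges of the groups did not overlap for 32 of the 35 genes, and for 59.4% of all genes tested. Markers of other cells differed too: 10 of 12 enteroendocrine markers fell and 1 rose (537–717 CPM summed in WT_EC and 113–144 CPM in WT_GC), as did 4 of 5 tested immune markers with 1 rising (12.7–14.9 and 3.85–4.71 CPM over 12) and 3 of 4 tested stromal and endothelial markers with 1 rising (15.01–32.6 and 4.002–5.16 CPM over 10). Their part in the junction gene differences was not tested. In bulk RNA, fewer cells of a type and less RNA per cell cannot be told apart.

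**Figure D1:**
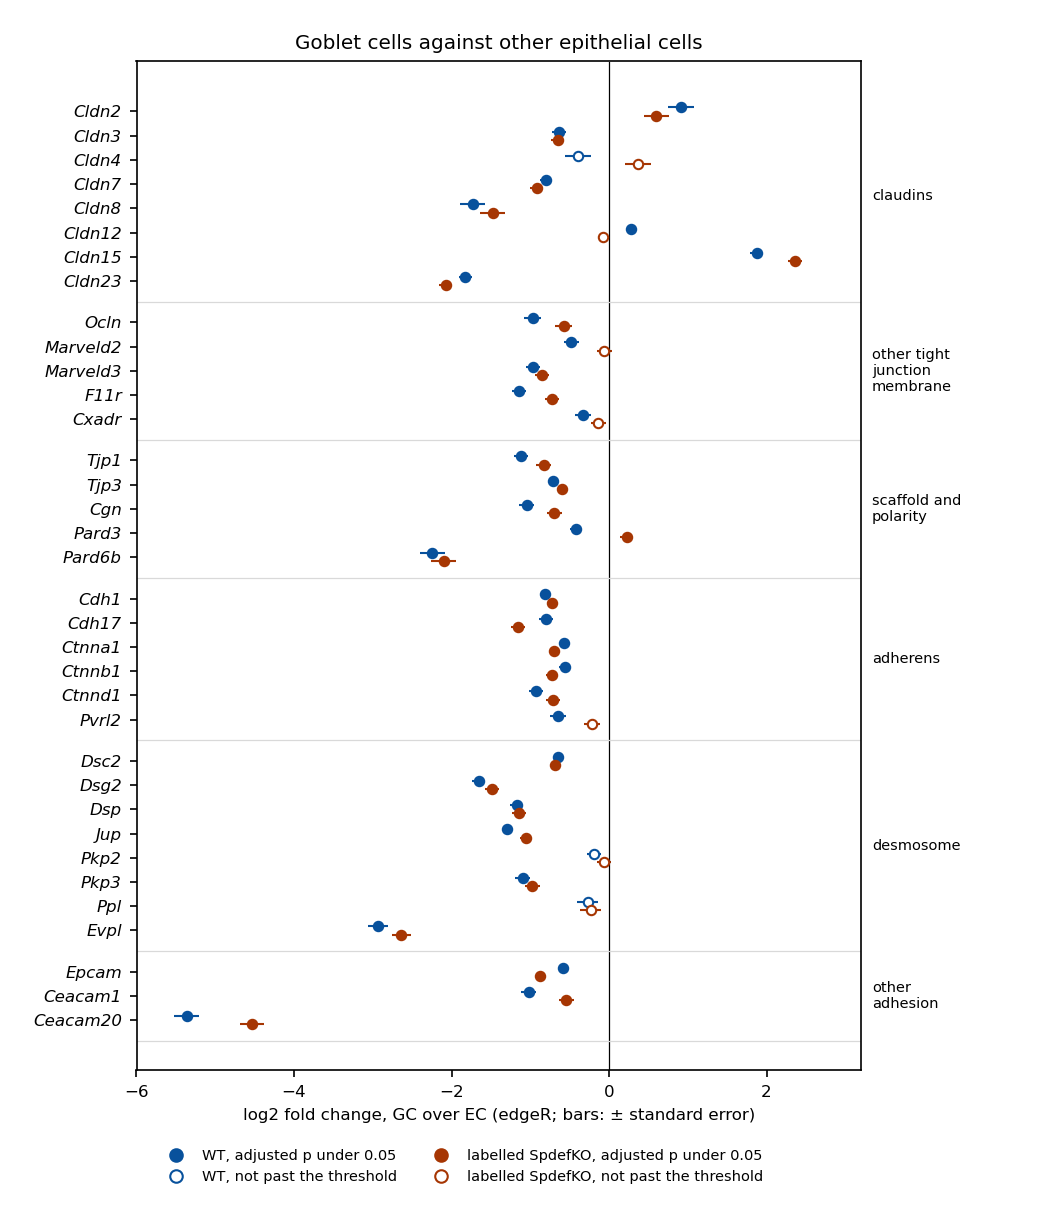
Log2 fold change of each junction gene between goblet cells and other epithelial cells (x axis; edgeR estimate with standard error), with genes by role on the y axis, for WT and for libraries labelled SpdefKO. Filled points passed an adjusted p under 0.05; most lie left of 0 in both genotypes, whereas Cldn2 and Cldn15 lie right of 0 in both.

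The claudins did not move together. Cldn15, a cation-channel claudin, was higher in goblet cells. Its level was 74.7, 60.2, 70.6 and 66.9 CPM in the WT_EC libraries and 245, 249, 254 and 252 CPM in WT_GC. The groups did not overlap, and goblet cells held 3.67 times the level of the other cells (log2 1.88 ± 0.086, adjusted p = 7.10e-13). Cldn2, the other channel-forming claudin and a product mainly of crypt cells, was at 119, 92.3, 150.1 and 114 CPM in WT_EC and 233, 188, 232 and 243 CPM in WT_GC. All 4 goblet cell libraries were above all EC libraries (log2 0.91 ± 0.16, adjusted p = 0.000104). Of 7 tested stem and crypt markers 2 rose and 1 fell in the same comparison. Their summed level over 8 markers was 745–885 CPM in WT_EC and 1439–1792 CPM in WT_GC, a difference that lay almost wholly in Slc12a2 (549 and 1313 CPM), while Lgr5 fell from 14.5 to 8.73 CPM; their part in the Cldn2 difference was not tested. Cldn12 was the third claudin that rose, by 0.28 ± 0.060 on the log2 scale.

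The sealing claudins Cldn23, Cldn8, Cldn3 and Cldn7 fell in goblet cells, to differing degrees. Cldn23, a claudin of differentiated surface colonocytes, was at 346, 368, 319 and 333 CPM in WT_EC and 107, 97.6, 81.6 and 99.7 CPM in WT_GC. Goblet cells thus held 28.2% of the EC level (log2 -1.83 ± 0.083, adjusted p = 7.08e-13). Cldn8, a sealing claudin of the distal colon, was 231 ± 21.3 CPM in WT_EC and lower, 69.6 ± 8.46 CPM, in WT_GC (log2 -1.73 ± 0.16, adjusted p = 6.13e-08). Cldn3 was at 842, 853, 705 and 818 CPM in WT_EC and 533, 538, 461 and 540.2 CPM in WT_GC, a smaller decrease without overlap (log2 -0.63 ± 0.085, adjusted p = 2.63e-06). For Cldn7, levels of 682, 662, 658 and 665 CPM in WT_EC stood against 379, 398, 383 and 368 CPM in WT_GC, with very little spread within either group (log2 -0.80 ± 0.079, adjusted p = 4.71e-08). Cldn4 did not pass in this comparison (log2 -0.40 ± 0.17, adjusted p = 0.0519); it passed as lower without WT_EC 14, its lowest EC library (adjusted p = 0.00865), without WT_GC 9 (0.0414), and without any of SpdefKO_EC 4, 6, 8 and 20 (0.0494, 0.0374, 0.0358 and 0.0487) or of SpdefKO_GC 3 and 19 (0.0425 and 0.0296). With all libraries Cldn4 passed under DESeq2 size factors (adjusted p = 0.0409) and the DESeq2 Wald test (0.0219), and it passed when only WT_GC and WT_EC were fitted (0.0284).

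The makeup of the claudin pool differed between the fractions. As shares of the summed CPM per kb of the 8 claudins, a measure that does not depend on library scaling, Cldn2 and Cldn15 together made up 3.48–5.56% in the WT_EC libraries and 16.2–19.6% in WT_GC. Cldn23 made up 11.5–12.4% in WT_EC and 4.57–5.28% in WT_GC, and Cldn8 5.71–6.85% and 2.46–3.12%. Cldn3, Cldn4 and Cldn7 together remained the bulk of the pool, with 73.98–77.1% in WT_EC and 70.4–73.5% in WT_GC. In libraries labelled SpdefKO, Cldn2 and Cldn15 together were at 3.36–3.99% in EC and 12.97–17.8% in GC, again without overlap between the fractions. Cldn4 alone made up 19.99–27.8% of the pool in SpdefKO_GC and 12.2–15.4% in WT_GC. The shares follow from the levels already tested and were given no test of their own.

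**Figure D2:**
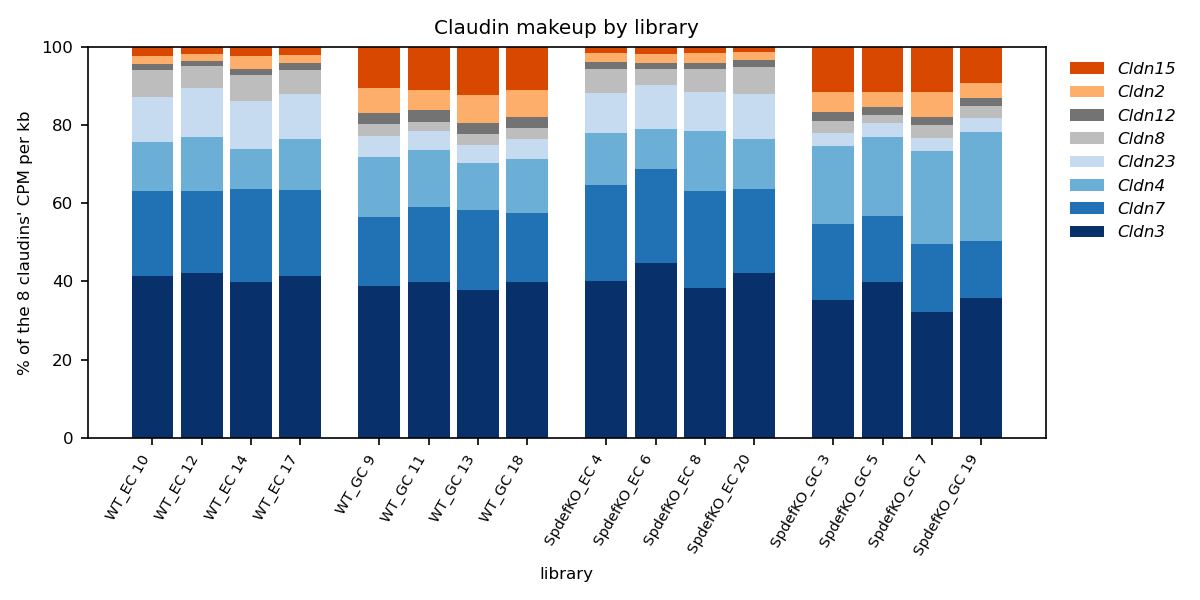
Makeup of the claudin pool in each of the 16 libraries: each bar stacks the share (y axis, percent) of the 8 claudins in their summed CPM per kb of exon. The orange segments (Cldn2 and Cldn15) take 16.2–19.6% in WT_GC and 3.48–5.56% in WT_EC.

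The other tight junction membrane proteins all fell in WT_GC, 5 of 5. Ocln (occludin), which lines tight junction strands, was at 374, 425, 322 and 387 CPM in WT_EC and 200.5, 211, 153 and 205 CPM in WT_GC. Every goblet cell library lay below every EC library (log2 -0.97 ± 0.11, adjusted p = 2.75e-07). F11r (junctional adhesion molecule A), an immunoglobulin-fold protein that recruits polarity proteins to the junction, was at 348, 401, 301 and 356 CPM in WT_EC and 166, 160.4, 143 and 165 CPM in WT_GC (log2 -1.15 ± 0.087, adjusted p = 1.19e-09). Marveld3, a relative of occludin, and Marveld2 (tricellulin), found where the corners of cells meet, had log2 changes of -0.96 ± 0.088 and -0.48 ± 0.10. Cxadr, the coxsackievirus and adenovirus receptor, moved least of the 5 (log2 -0.33 ± 0.10, adjusted p = 0.00722).

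Scaffold and polarity genes were also lower in WT_GC, 5 of 5. Pard6b, which couples atypical protein kinase C to the apical polarity complex, was at 181, 217, 130.2 and 193 CPM in WT_EC and 43.4, 38.2, 28.7 and 42.6 CPM in WT_GC. Goblet cells held 21.2% of the EC level, the largest decrease of the group (log2 -2.24 ± 0.16, adjusted p = 1.43e-09). Tjp1 (ZO-1), the scaffold that joins claudins and occludin to actin, was at 331, 387, 306 and 371 CPM in WT_EC and 169, 164, 147 and 165 CPM in WT_GC. It was thus at 46.1% of the EC level without overlap (log2 -1.12 ± 0.094, adjusted p = 4.81e-09). Cgn (cingulin) and Tjp3 (ZO-3), further cytoplasmic plaque proteins, changed by -1.04 ± 0.10 and -0.71 ± 0.072 on the log2 scale. Pard3, the partner of Pard6b at the junction, was at 117, 119, 113 and 114 CPM in WT_EC and 90.5, 92.1, 88.3 and 75.9 CPM in WT_GC (log2 -0.42 ± 0.080, adjusted p = 0.000168).

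All 6 adherens junction genes fell in WT_GC, within a narrow range of log2 changes from -0.92 to -0.56. Cdh1 was at 1814, 1852, 1687 and 1794 CPM in WT_EC and 1029.7, 1043, 953 and 1030.4 CPM in WT_GC. That placed goblet cells at 56.7% of the EC level (log2 -0.82 ± 0.064, adjusted p = 1.66e-09). Cdh17 (liver-intestine cadherin) was at 974, 1028, 980.0 and 924 CPM in WT_EC and 566, 545, 589.6 and 547 CPM in WT_GC (log2 -0.80 ± 0.087, adjusted p = 1.88e-07). The catenins Ctnna1 (alpha), Ctnnb1 (beta) and Ctnnd1 (p120) had log2 changes of -0.57 ± 0.059, -0.56 ± 0.074 and -0.92 ± 0.089. Pvrl2 (nectin-2), a cadherin-independent adhesion molecule, was at 204, 209, 163 and 205 CPM in WT_EC and 136, 129, 101 and 131 CPM in WT_GC (log2 -0.65 ± 0.10, adjusted p = 2.02e-05).

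Desmosome genes split into a majority that fell and a pair that did not pass. Evpl (envoplakin), a plakin of stratified and surface epithelia, was at 179.7, 216, 163 and 191 CPM in WT_EC and 24.1, 26.6, 22.2 and 25.1 CPM in WT_GC. Goblet cells held 13.1% of the EC level (log2 -2.93 ± 0.12, adjusted p = 2.40e-13). Dsg2 (desmoglein-2), the desmosomal cadherin of simple epithelia, was at 688, 826, 713 and 756 CPM in WT_EC and 237, 241, 222 and 247 CPM in WT_GC, or 31.7% of the EC level (log2 -1.66 ± 0.085, adjusted p = 3.97e-12). Its partner cadherin Dsc2 was at 335, 361, 369 and 331 CPM in WT_EC and 227, 221, 216 and 229 CPM in WT_GC, a smaller decrease (log2 -0.65 ± 0.061, adjusted p = 2.46e-08). The plaque proteins Jup (plakoglobin), Dsp (desmoplakin) and Pkp3 (plakophilin-3) had log2 changes of -1.29 ± 0.074, -1.17 ± 0.087 and -1.10 ± 0.10. Pkp2 (plakophilin-2) and Ppl had log2 changes of -0.19 ± 0.089 (adjusted p = 0.0806) and -0.27 ± 0.13 (adjusted p = 0.0882). Both passed as lower when only WT_GC and WT_EC were fitted (0.0193 for Pkp2 and 0.0143 for Ppl) and without WT_EC 14 (0.0247 for Pkp2 and 0.0384 for Ppl); Pkp2 also passed without SpdefKO_EC 4 (0.0305) or 6 (0.0422), and Ppl without SpdefKO_EC 20 (0.0329) or SpdefKO_GC 7 (0.0497).

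Ceacam20, a membrane protein of the colonocyte brush border, showed the largest difference of the 35 genes. It was at 439, 488, 463 and 503 CPM in WT_EC and 10.98, 9.26, 10.2 and 16.2 CPM in WT_GC. Goblet cells held 2.46% of the EC level (log2 -5.36 ± 0.16, adjusted p = 7.50e-15), beside 1.59% for the colonocyte sodium-hydrogen exchanger gene Slc9a3 and 2.66% for the chloride exchanger gene Slc26a3. The median over the 35 junction genes was 57.3% of the EC level, and over the 14 colonocyte markers 4.88%. Ceacam1 was at 2045, 2234, 1995 and 2266 CPM in WT_EC and 1130.2, 968, 943 and 1172 CPM in WT_GC (log2 -1.02 ± 0.10, adjusted p = 2.11e-08); its near-identical relative Ceacam2 may share reads with it. Epcam was at 2169.8, 2313, 2348 and 2335 CPM in WT_EC and 1455, 1513, 1587 and 1558 CPM in WT_GC, and every EC library exceeded every goblet cell library (log2 -0.58 ± 0.062, adjusted p = 1.37e-07).

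In libraries labelled SpdefKO most junction genes were also lower in goblet cells. Relative to SpdefKO_EC, 25 of the 35 genes fell in SpdefKO_GC, 3 rose and 7 did not pass, where 56.4% of all genes tested were called (28.4% lower and 28.0% higher). Among genes at or above the level of the lowest junction gene 62.0% were called, 34.9% as lower and 27.0% as higher. Ranges did not overlap for 27 of the 35 genes and for 48.1% of all genes tested. Of 8 tested tuft markers 8 were also higher in SpdefKO_GC than in SpdefKO_EC, with summed levels of 22.7–50.4 and 9.69–19.1 CPM; their part in the junction gene differences was not tested. The comparisons in WT and in SpdefKO share no library. In both of them 25 genes fell and 2 rose (Cldn2 and Cldn15), 1 (Pard3) passed in opposite directions, 4 passed in WT alone and 3 in neither. Across the 35 genes the log2 changes in both genotypes had a Pearson r of 0.963 and a Spearman rho of 0.861, as a description of genes measured in the same libraries. The change was smaller in size in SpdefKO than in WT for 26 of the 35 genes, and the same count was not taken over all genes. Over all genes tested, calls of at least 2-fold between fractions numbered 2799 in WT and 2451 in SpdefKO. The test of the difference between genotypes per gene is the interaction given further on.

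Ceacam20, Evpl, Cldn15, Pard6b and Cldn23 had the largest changes in SpdefKO, and also in WT. Ceacam20 was at 351, 339, 358 and 308 CPM in SpdefKO_EC and 15.1, 13.3, 11.4 and 18.9 CPM in SpdefKO_GC (log2 -4.53 ± 0.15, adjusted p = 5.07e-14). Evpl was at 192, 182, 195 and 229 and 27.3, 38.1, 26.6 and 36.4 CPM (log2 -2.64 ± 0.12, adjusted p = 1.01e-12). Cldn15, the gene most enriched in goblet cells, was at 48.3, 54.3, 54.6 and 42.2 CPM in SpdefKO_EC and 264, 276, 259.8 and 228 CPM in SpdefKO_GC, 5.15 times the EC level (log2 2.36 ± 0.088, adjusted p = 4.88e-14). The polarity gene Pard6b was at 209, 166, 238 and 192 CPM in SpdefKO_EC and 43.4, 43.7, 48.5 and 52.6 CPM in SpdefKO_GC (log2 -2.10 ± 0.16, adjusted p = 3.49e-09). Cldn23 was at 289, 302, 299.7 and 299 and 66.7, 75.3, 62.8 and 77.4 CPM (log2 -2.08 ± 0.085, adjusted p = 1.73e-13). In each of these 5 genes the fractions stood apart with no overlap.

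Core adhesion genes showed intermediate decreases in the labelled knockout as well. Cdh1 was at 1797, 1847, 1884 and 1938 CPM in SpdefKO_EC and 1067, 1163, 1067 and 1208 CPM in SpdefKO_GC (log2 -0.73 ± 0.064, adjusted p = 9.96e-09), and Dsg2 at 737, 808, 739 and 799 and 248, 295, 243 and 314 CPM (log2 -1.49 ± 0.085, adjusted p = 2.13e-11). Epcam was at 2613, 2419, 2483 and 2406 CPM in SpdefKO_EC and 1355, 1379, 1253 and 1406 CPM in SpdefKO_GC (log2 -0.88 ± 0.063, adjusted p = 5.17e-10). Within the tight junction, Cldn3 had levels of 772, 822, 782 and 752 and 478, 561, 429 and 521 CPM and Cldn7 of 733, 685, 776 and 585 and 407, 372, 356 and 333 CPM in the same order of groups. Their log2 changes were -0.65 ± 0.085 and -0.92 ± 0.079. Cldn2 was at 123, 109, 129 and 91.7 CPM in SpdefKO_EC and 186, 139, 219 and 143 CPM in SpdefKO_GC, and rose (log2 0.60 ± 0.16, adjusted p = 0.00420).

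Which junction transcripts of goblet cells differ where Spdef is labelled as absent was addressed by comparing SpdefKO_GC with WT_GC. The changes were small and mostly upward: 14 of 35 genes rose in SpdefKO_GC, 3 fell and 18 did not pass, and 0 of the calls reached a 2-fold change. Of all genes tested 21.4% were called, 10.4% as higher and 11.01% as lower; among the genes at or above the level of the lowest junction gene 23.2% were called, 11.5% as higher and 11.7% as lower. The median log2 change was 0.20 for the junction genes and 0.0014 for all genes tested. CPM ranges of the groups did not overlap for 19 of the 35 genes, and for 25.1% of all genes tested. Among the genes that rose, the SpdefKO_GC libraries were not uniform. Libraries 5 and 19 both lay above 3 and 7 for Ocln, F11r, Tjp1, Pard3, Pvrl2, Ctnnd1, Dsp, Jup, Evpl and Ceacam1. They both lay below 3 and 7 for Dsc2 and Pkp2, and Cldn4 and Marveld2 showed neither order. Dsp was at 932, 893, 845 and 880 CPM in WT_GC and 938, 1146, 935 and 1182 CPM in SpdefKO_GC. In SpdefKO_EC, libraries 6 and 20 both lay above 4 and 8 for Ocln, Marveld2, Tjp1, Pard3, Ctnnd1 and Dsp. There they both lay below 4 and 8 for Cldn4, Jup, Pkp2 and Ceacam1, and F11r, Pvrl2, Dsc2 and Evpl showed neither order. The cause of the split in either fraction was not tested.

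**Figure D3:**
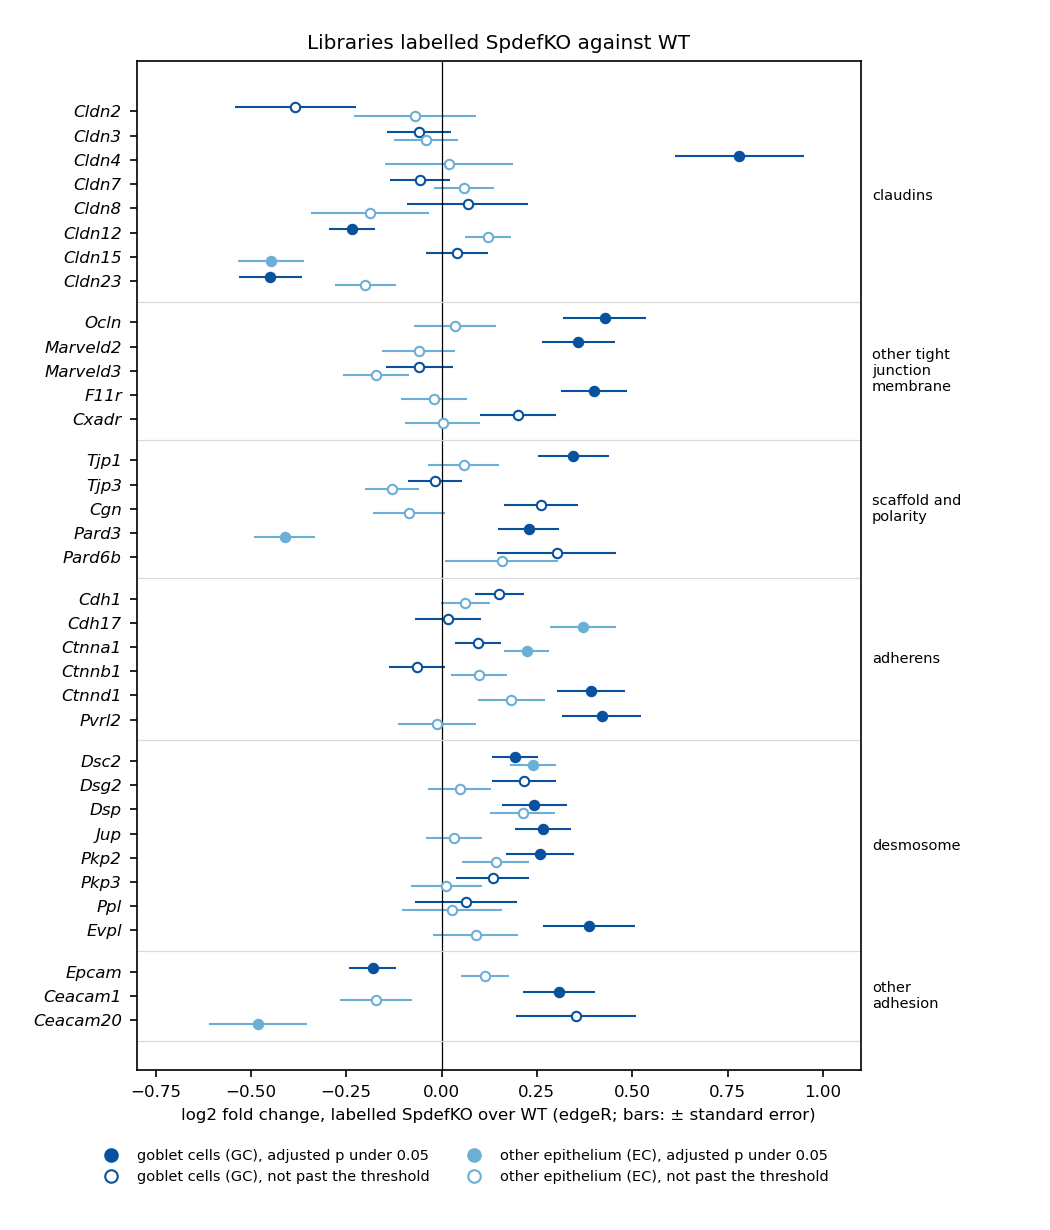
Log2 fold change of each junction gene between libraries labelled SpdefKO and WT (x axis; edgeR estimate with standard error), by role on the y axis, in goblet cells (dark) and in other epithelial cells (light). Filled points passed an adjusted p under 0.05; the goblet cell estimates run from -0.45 for Cldn23 to 0.78 for Cldn4.

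Cldn4, a claudin that can be strongly induced and that restricts cation passage, changed most in goblet cells. Its level was 306, 284, 214 and 271 CPM in WT_GC and 393, 407, 460.1 and 586 CPM in SpdefKO_GC. All 4 libraries labelled SpdefKO were above all WT libraries, SpdefKO_GC 19 by the most (log2 0.78 ± 0.17, adjusted p = 0.00377). Cldn3, whose gene lies 39.3 kb from Cldn4 on chromosome 5, was at 533, 538, 461 and 540.2 and 478, 561, 429 and 521 CPM and did not pass (log2 -0.060 ± 0.084, adjusted p = 0.661). Cldn23 was at 107, 97.6, 81.6 and 99.7 CPM in WT_GC and 66.7, 75.3, 62.8 and 77.4 CPM in SpdefKO_GC, the largest decrease (log2 -0.45 ± 0.083, adjusted p = 0.000806). The other claudin that fell was Cldn12 (log2 -0.24 ± 0.060, adjusted p = 0.00922), a call lost without WT_GC 11 (adjusted p = 0.0548). Cldn2 did not pass (log2 -0.38 ± 0.16, adjusted p = 0.0962), except without SpdefKO_GC 7, its highest library of that group (adjusted p = 0.0330). Cldn7, Cldn8 and Cldn15 did not pass either, with log2 changes of -0.056, 0.069 and 0.040.

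Of the other tight junction genes 5 of 10 rose and 0 fell by the edgeR test. Ocln was at 200.5, 211, 153 and 205 CPM in WT_GC and 228, 280.0, 239 and 288 CPM in SpdefKO_GC (log2 0.43 ± 0.11, adjusted p = 0.00871). Marveld2, whose gene lies 43.2 kb from Ocln on chromosome 13, rose by 0.36 ± 0.10 on the log2 scale. F11r was at 166, 160.4, 143 and 165 and 191, 231, 189 and 227 CPM, with no overlap (log2 0.40 ± 0.087, adjusted p = 0.00297). Tjp1 was at 169, 164, 147 and 165 CPM in WT_GC and 177, 229, 185 and 226 CPM in SpdefKO_GC (log2 0.35 ± 0.093, adjusted p = 0.0127), and Pard3 at 90.5, 92.1, 88.3 and 75.9 and 95.03, 115, 92.3 and 105 CPM (log2 0.23 ± 0.080, adjusted p = 0.0484). Unadjusted, 6 of the 10 had a p under 0.05, as did 4452 of all 12915 genes tested.

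Of the adherens junction and desmosome genes 7 of 14 rose in SpdefKO_GC. Pvrl2 was at 136, 129, 101 and 131 CPM in WT_GC and 151, 195, 155 and 164 CPM in SpdefKO_GC (log2 0.42 ± 0.10, adjusted p = 0.00696), and the p120 catenin gene Ctnnd1 rose by 0.39 ± 0.088 on the log2 scale. Cdh1 was at 1029.7, 1043, 953 and 1030.4 and 1067, 1163, 1067 and 1208 CPM, which did not pass (log2 0.15 ± 0.063, adjusted p = 0.0963), and Cdh17 at 566, 545, 589.6 and 547 and 583, 513, 549.8 and 629 CPM (log2 0.017 ± 0.087, adjusted p = 0.914). The desmosome genes Evpl, Jup, Pkp2, Dsp and Dsc2 rose by 0.39, 0.26, 0.26, 0.24 and 0.19 on the log2 scale. Evpl was at 24.1, 26.6, 22.2 and 25.1 CPM in WT_GC and 27.3, 38.1, 26.6 and 36.4 CPM in SpdefKO_GC, with overlap between the groups. Dsc2 was at 227, 221, 216 and 229 and 257, 246, 266 and 251 CPM, without overlap. Dsg2 had 237, 241, 222 and 247 CPM in WT_GC and 248, 295, 243 and 314 CPM in SpdefKO_GC and did not pass (log2 0.22 ± 0.084, adjusted p = 0.0743). It passed without SpdefKO_GC 3 (adjusted p = 0.0343) or 7 (0.0252), and with all libraries under no scaling (0.0496) or the DESeq2 Wald test (0.0478). Outside the junction complexes, Ceacam1 rose (log2 0.31 ± 0.094, adjusted p = 0.0262), from 1130.2, 968, 943 and 1172 CPM in WT_GC to 1221, 1367, 1216 and 1409 CPM in SpdefKO_GC. Epcam fell (log2 -0.18 ± 0.062, adjusted p = 0.0452), from 1455, 1513, 1587 and 1558 to 1355, 1379, 1253 and 1406 CPM.

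**Figure D4:**
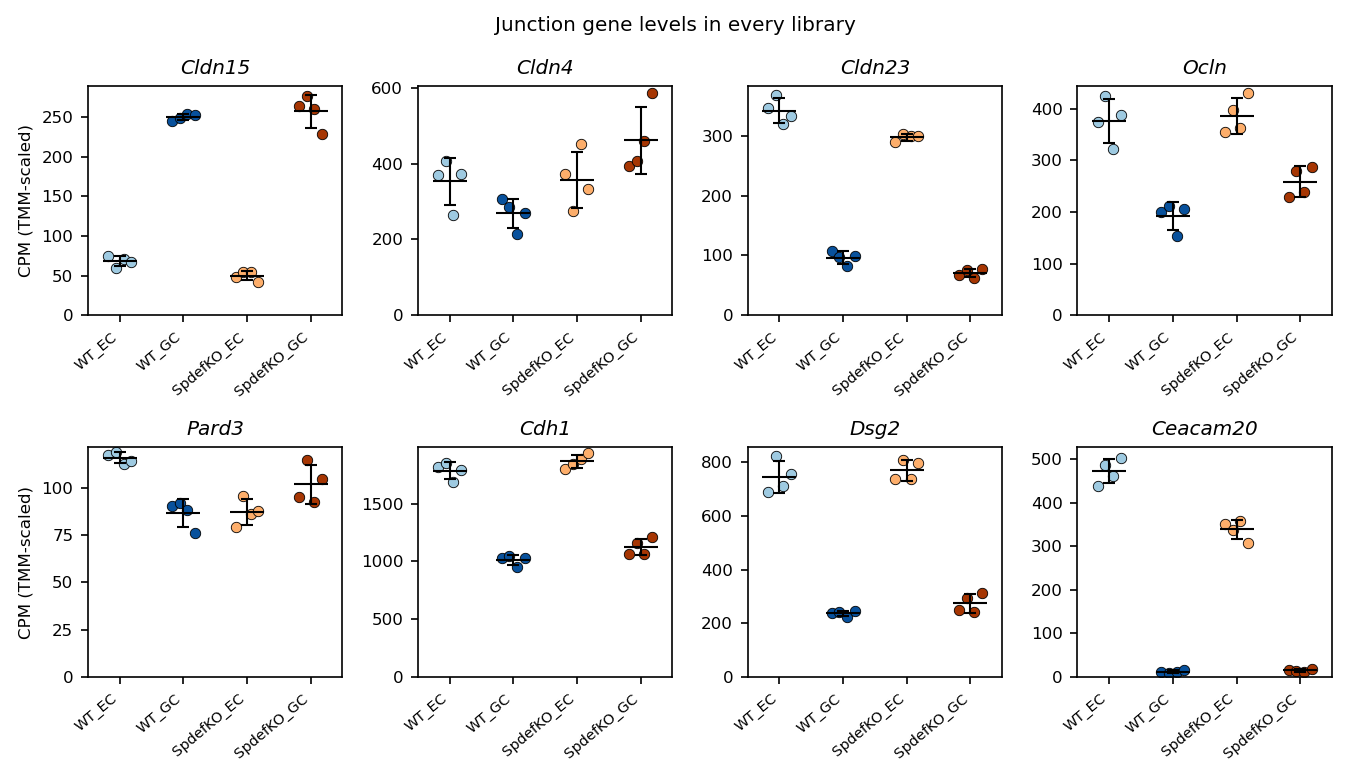
TMM-scaled CPM (y axis, from 0) of 8 junction genes in all 16 libraries: points are libraries, bars are the mean ± SD of the 4 libraries of each group (x axis). Cldn15 is high and Ceacam20 low in both goblet cell groups, and the 4 SpdefKO_GC libraries lie above all WT_GC libraries for Cldn4 and Ocln.

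The calls between goblet cell groups differed in firmness. The 9 calls of Cldn4, Cldn23, Ocln, Marveld2, F11r, Tjp1, Ctnnd1, Pvrl2 and Jup held under every alternative run, including each single library left out, and the other 8 were lost under at least 1. Of these, Pard3 was lost without WT_GC 9, 13 or 18, SpdefKO_GC 5 or 19, or SpdefKO_EC 8 (adjusted p 0.0545–0.119). Dsp, with an adjusted p = 0.0499, was lost without any WT_GC library, SpdefKO_GC 5 or 19, or SpdefKO_EC 8 (0.0540–0.139), and Pkp2 without any WT_GC library, SpdefKO_GC 3, 7 or 19, or WT_EC 10 (0.0503–0.103). Dsc2 was lost without WT_GC 9, 11 or 13 or SpdefKO_GC 3 or 7 (0.0521–0.0847), Evpl without WT_GC 9 or 13 or SpdefKO_GC 5 or 19 (0.0642–0.0916) and Ceacam1 without WT_GC 11 or 13 or SpdefKO_GC 5 or 19 (0.0505–0.0919). Epcam was lost on leaving out any 1 library except WT_GC 9 or SpdefKO_EC 6 (0.0516–0.165), and with all libraries under DESeq2 size factors (0.0551) or no scaling (0.0553). Upper-quartile factors ended the calls of Pard3 (0.0700), Dsp (0.0624) and Pkp2 (0.0504), and limma-voom those of Pard3 (0.0520) and Evpl (0.0544). Testing all genes without the filter ended those of Pard3 (0.0879), Dsc2 (0.0885), Dsp (0.0681), Pkp2 (0.0701) and Epcam (0.0747), and fitting only these groups those of Pard3 (0.0665) and Epcam (0.0675). The count of 17 calls fell to 11 without WT_GC 11, 10 without WT_GC 13 and 11 without SpdefKO_GC 19.

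Markers of other cells moved with the same comparison. Of 14 colonocyte markers 8 rose and 1 fell in SpdefKO_GC, and their summed level was 1808–2240.0 CPM in WT_GC and 2169–2771 CPM in SpdefKO_GC, against 19406–22168 CPM in WT_EC. Of 12 enteroendocrine markers 11 rose and 1 fell (summed level 113–144 and 223–322 CPM), and of 5 tested immune markers 3 rose (3.85–4.71 and 6.88–8.89 CPM over 12 markers, with Cd3g at 0 in WT_GC). For 10 stromal and endothelial markers the summed levels were 4.002–5.16 and 8.48–11.7 CPM, and 1 of the 4 tested rose and 1 fell. Of 10 cycling markers 1 rose (1037–1461 and 1406–2362 CPM), and of 8 tested tuft markers 0 passed the edgeR test, with 1 at an unadjusted p under 0.05. Of 7 tested stem and crypt markers 3 fell (Slc12a2, Rgmb and Ascl2) and 0 rose, and the summed level over 8 was 1439–1792 CPM in WT_GC and 909.7–1015 CPM in SpdefKO_GC, mostly that of Slc12a2 (1313 and 740.5 CPM). Their part in the junction gene changes was not tested. Cldn23 and Ceacam20, both much higher in EC, had log2 changes of -0.45 and 0.35 (adjusted p = 0.119) in this comparison; that of Ceacam20 passed as higher without WT_GC 18 (adjusted p = 0.00919) or SpdefKO_GC 7 (0.0441).

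In the other epithelial cells few junction genes differed with the genotype label: 3 of 35 rose and 3 fell in SpdefKO_EC relative to WT_EC. The 6 calls are 17.1% of the list, where 12.6% of all genes tested were called (6.09% higher and 6.54% lower), a share near the background. Among genes at or above the level of the lowest junction gene it was also 12.6% (8.18% higher and 4.38% lower). Ranges did not overlap for 10 of the 35 genes and for 15.3% of all genes tested. The largest change was that of Ceacam20, at 439, 488, 463 and 503 CPM in WT_EC and 351, 339, 358 and 308 CPM in SpdefKO_EC (log2 -0.48 ± 0.13, adjusted p = 0.0201). Every library labelled SpdefKO lay below every WT library. Cldn15 was at 74.7, 60.2, 70.6 and 66.9 and 48.3, 54.3, 54.6 and 42.2 CPM (log2 -0.45 ± 0.086, adjusted p = 0.00250), and Pard3 at 117, 119, 113 and 114 and 79.2, 95.7, 85.97 and 87.7 CPM (log2 -0.41 ± 0.080, adjusted p = 0.00274), each lower without overlap.

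The 3 genes that rose in SpdefKO_EC were adherens junction and desmosome genes. Cdh17 was at 974, 1028, 980.0 and 924 CPM in WT_EC and 1412, 1072, 1404 and 1165 CPM in SpdefKO_EC (log2 0.37 ± 0.086, adjusted p = 0.00920). The desmosomal cadherin Dsc2 was at 335, 361, 369 and 331 and 407, 386, 447 and 407 CPM (log2 0.24 ± 0.060, adjusted p = 0.0143). The alpha-catenin gene Ctnna1 rose too (log2 0.22 ± 0.059, adjusted p = 0.0186). Calls of Ctnna1, Dsc2 and Ceacam20 were not firm. Ctnna1 was lost without WT_EC 10, 14 or 17 or SpdefKO_EC 4 (adjusted p 0.0527–0.0701), Dsc2 without WT_EC 10 or 17 or SpdefKO_EC 8 (0.0527–0.0590) and Ceacam20 without WT_EC 12 or 17 or SpdefKO_EC 20 (0.0523–0.0637). Fitting only the EC groups also ended the calls of Ctnna1 (0.0909) and Dsc2 (0.0672), and upper-quartile factors (0.0505) or no filter (0.0543) that of Ctnna1. Without WT_EC 17 the count of calls was 3. In the same comparison 6 of 8 tested tuft markers and 6 of 12 enteroendocrine markers fell, with summed levels of 43.7–84.6 and 9.69–19.1 CPM for 9 tuft markers and 537–717 and 242–392 CPM for enteroendocrine markers; their part in the junction gene changes was not tested. Of 14 colonocyte markers 3 rose and 3 fell. Of 12 goblet cell markers 4 fell and 0 rose (617–805 CPM summed in WT_EC and 566–608 CPM in SpdefKO_EC), and of 10 cycling markers 2 rose and 0 fell (873–1336 and 1093–2007 CPM).

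Epcam and Cdh1 did not pass with the genotype label in EC. Epcam was at 2169.8, 2313, 2348 and 2335 CPM in WT_EC and 2613, 2419, 2483 and 2406 CPM in SpdefKO_EC (log2 0.11 ± 0.062, adjusted p = 0.240), without overlap, and Cdh1 at 1814, 1852, 1687 and 1794 and 1797, 1847, 1884 and 1938 CPM (log2 0.063 ± 0.063, adjusted p = 0.554). Among tight junction genes, Cldn4 had a log2 change of 0.018 ± 0.17, Cldn7 of 0.060 ± 0.079, Ocln of 0.035 ± 0.11, F11r of -0.021 ± 0.086 and Tjp1 of 0.058 ± 0.092, with adjusted p between 0.666 and 0.960. Cldn4 in single libraries was at 370.5, 407, 263 and 373 CPM in WT_EC and 372, 275, 451 and 334 CPM in SpdefKO_EC, broadly overlapping.

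The difference of the genotype effect between the fractions was tested directly, as the change in GC minus the change in EC. It passed for 7 of 35 junction genes, 5 in the positive and 2 in the negative direction. Of all genes tested 9.53% were called (4.88% positive and 4.65% negative). Among those at or above the level of the lowest junction gene it was 10.5% (3.99% and 6.50%). An unadjusted p under 0.05 was found for 16 of the 35 and for 3127 of all 12915 genes tested. Ceacam20 had the largest difference, having fallen in SpdefKO_EC without a call in goblet cells (log2 0.83 ± 0.20, adjusted p = 0.0145). Pard3 fell in EC and rose in GC (log2 0.64 ± 0.11, adjusted p = 0.00143), and its level in GC was below that in EC in WT (log2 -0.42) and above it in the labelled knockout (log2 0.22, adjusted p = 0.0238). That last call was lost without SpdefKO_EC 4 (adjusted p = 0.0854), SpdefKO_GC 5 (0.0926) or SpdefKO_GC 19 (0.0536), and when only these groups were fitted (0.0601). Cldn15, Ceacam1 and F11r also differed in the positive direction, by 0.49 ± 0.12, 0.48 ± 0.13 and 0.42 ± 0.12. In the negative direction were Cldn12 (-0.36 ± 0.086) and Epcam (-0.30 ± 0.088). Markers of cell types passed this test too. Of 14 colonocyte markers 4 were called positive and 0 negative, with a median log2 difference of 0.64. Of 12 enteroendocrine markers 10 were positive and 0 negative, of 8 tested tuft markers 6 and 0, and of 12 goblet cell markers 5 and 2. Their part in the junction gene differences, that of Ceacam20 included, was not tested.

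Cldn4, which rose with the label in goblet cells, missed the test of this difference (log2 0.76 ± 0.24, adjusted p = 0.0552), so a difference between the fractions is not called for it here. This miss was not firm: the difference passed with all libraries under upper-quartile factors (adjusted p = 0.0414), no scaling (0.0323) or the DESeq2 Wald test (0.0138). It also passed without WT_EC 14 (0.0170), SpdefKO_EC 8 (0.0237) or SpdefKO_GC 3 (0.0437). The calls of Cldn12, Cldn15, Pard3 and Ceacam20 held under every alternative run. F11r was lost without WT_EC 12 or 17, WT_GC 13 or SpdefKO_GC 5 or 19 (adjusted p 0.0604–0.0823), Ceacam1 without WT_EC 12 or 17, WT_GC 11 or 13 or SpdefKO_GC 19 (0.0533–0.0669), and Epcam on leaving out any 1 library except WT_GC 9 or SpdefKO_EC 6 or 20 (0.0526–0.118). With all libraries, Epcam was lost under each other scaling (0.0545–0.0882) and without the filter (0.0791). The count of 7 became 4 without WT_EC 12, WT_EC 17, WT_GC 13 or SpdefKO_GC 19, and 11 without WT_EC 14.

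Further junction and adhesion genes outside the 35 were more mixed in direction between the fractions. Of 66 that were tested, 35 fell and 16 rose in WT_GC relative to WT_EC, beside 30.1% lower and 31.0% higher among all genes tested. In SpdefKO_GC relative to SpdefKO_EC 33 fell and 18 rose, beside 28.4% lower and 28.0% higher. Ceacam2, Cdhr1 (a protocadherin-like cadherin), Kifc3 (a kinesin of adherens junctions), Ceacam18 and Clmp (an adhesion molecule related to Cxadr) had log2 changes of -3.32, -2.76, -2.59, -2.55 and -2.51 in WT. Mpdz, a scaffold with many PDZ domains, was higher in goblet cells, at 5.27 ± 0.995 CPM in WT_GC and 0.367 ± 0.136 CPM in WT_EC (log2 3.78 ± 0.41, adjusted p = 2.01e-07). Cdh3 (P-cadherin) and Pvrl1 (nectin-1) were higher in goblet cells of both genotypes, with log2 changes of 3.05 ± 0.34 and 2.10 ± 0.16 in WT and 4.97 ± 0.32 and 2.81 ± 0.17 in SpdefKO. Cdh3 was near the floor in WT_EC, with a mean of 0.358 CPM. Only 2 of 15 further claudin genes passed the filter on low counts.

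Between goblet cell groups 15 of these 66 genes rose and 7 fell, beside 10.4% higher and 11.01% lower among all genes tested. Cdh3 was at 4.13, 2.57, 1.78 and 3.82 CPM in WT_GC and 6.54, 8.62, 12.6 and 9.09 CPM in SpdefKO_GC, with no overlap (log2 1.59 ± 0.23, adjusted p = 6.18e-05). Dst (dystonin), a plakin that anchors filaments, rose from 286 ± 15.5 to 495 ± 96.5 CPM (log2 0.79 ± 0.13, adjusted p = 0.000325), and Pkp4, a relative of p120 catenin, by 0.67 ± 0.087 on the log2 scale. Ceacam10, a secreted member of its family, was lower in SpdefKO_GC (31.5 ± 3.503 CPM, WT_GC 58.4 ± 4.75; log2 -0.89 ± 0.11, adjusted p = 1.31e-05), as was Cgnl1 (paracingulin; 75.4 ± 2.85 and 121 ± 5.13 CPM; log2 -0.68 ± 0.073, adjusted p = 2.57e-06). The genotype effect differed between fractions for Cdh3, Ceacam10, Dst and Prkcz, an atypical protein kinase C, with interaction values of 1.91 ± 0.58, -0.90 ± 0.17, 0.87 ± 0.18 and 0.69 ± 0.20. Their edgeR adjusted p values were 0.0444, 0.00212, 0.00581 and 0.0409. The value for Cdh3 rests on few EC reads (mean 0.358 CPM in WT_EC), and alternative runs were read for the 35 junction genes only. In EC, 4 of the 66 rose and 2 fell, beside 6.09% higher and 6.54% lower among all genes tested. Cdhr1 was among those that fell (log2 -0.62 ± 0.20, adjusted p = 0.0436).

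Of the 35 genes, 5 (Cldn3, Cxadr, Tjp3, Ctnna1 and Ctnnb1) share exon bases with a counted gene on the opposite strand in GENCODE. The sources used here do not give the strand setting of the counting, so their values are less certain. Epcam was the only member on chromosome 17, the chromosome of Spdef, at a distance of 59.9 Mb. Cldn15, the claudin most enriched in goblet cells, lies on GRCm38 chromosome 5, 136966616–136975858, Ceacam20 on chromosome 7, 19965412–19991104 and Cldn4 on chromosome 5, 134945119–134946934, in models of up to 6, 12 and 1 exons.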

How the data were processed

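RNA was measured in 16 libraries of sorted distal colon cells, 4 per group. The table deposited by the authors holds raw read counts for each gene symbol. Among tools, the submitters' processing notes list STAR 2.4.0f (with the build mm10), HTSeq 0.6.1p1, FastQC 0.11.2 and DESeq2 1.14, without role or order. Annotation, strand setting and filters of the counting are not given in the sources used. Per the labels' protocols, goblet cell RNA was purified on MinElute columns and the other RNA on Mini columns, so purification cannot be told apart from cell type.

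Rows without a gene name (3 in all) took 47.1–54.7% of the counts, and neither library sizes nor tests include them. Differential expression was tested in R 4.3.3 with edgeR 4.0.16 and limma 3.58.1, using TMM factors (0.944–1.06), filter by group, robust quasi-likelihood fit, 1 coefficient per group, Benjamini-Hochberg adjustment over 12915 genes, common dispersion 0.0137. Standard errors were derived from each log2 change and its F statistic and are approximate. Nothing in the labels ties libraries to separate mice; p-values therefore reflect spread among libraries, which may be technical. Every pair of libraries in a group differed beyond sampling noise, with a chi-square of at least 4.54 per degree of freedom.

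Exon lengths are unions of GENCODE M21 exons (GRCm38). Members and gene lists were chosen with earlier results of these data known. Values in every library are given for 9 listed members and for the 5 largest called changes of each comparison; pathway genes outside the list are named from 5 CPM and a 4-fold change between fractions or a 1.5-fold change between genotypes, at most 6 per comparison. The fit was tested on simulated data. Alternatives were 3 other scalings, no filter, DESeq2 1.42.0, limma-voom, only the groups compared, and each library left out.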

Additional observations from a re-analysis of the deposited data

Results flagged for a closer look

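The genotype effect differed between goblet cells and other epithelium, by the edgeR test of the difference itself, for 7 of the 35 genes. On the log2 scale, GC minus EC, the differences were 0.83 for Ceacam20, 0.64 for Pard3, 0.49 for Cldn15, 0.48 for Ceacam1, 0.42 for F11r, -0.36 for Cldn12 and -0.30 for Epcam, with adjusted p of 0.0145, 0.00143, 0.0140, 0.0288, 0.0355, 0.0129 and 0.0405. For Cldn12 the log2 change was -0.24 in goblet cells and 0.12 in EC.

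A single library stood far from the other 3 of its group in 6 of 140 groups of 4 libraries by Dixon's criterion for the gap over the range. Chance flags about 1 in 20 groups. In WT_GC 13, Cldn3 had 461 CPM (533–540.2 CPM in the other WT_GC libraries) and Cdh1 had 953 CPM (1029.7–1043 CPM in the others). In WT_GC 9, Cgn had 239 CPM (209.8–214 CPM in the rest of its group). In SpdefKO_EC 6, Cldn8 had 137 CPM (219.9–227 CPM in the rest). In WT_EC, Cldn12 was at 93.8 CPM in library 12 (103–104 CPM in the others) and Pvrl2 at 163 CPM in library 14 (204–209 CPM in the others).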

How the results depend on the processing

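No paired analysis was run, because the groups share no library number in the labels, which also do not tie goblet cell libraries to EC libraries of the same mouse. Numbers of GC and EC libraries are adjacent, as in WT_GC 9 and WT_EC 10, but no label says what this order means. The tests treated all 16 libraries as independent, so any pairing of GC with EC libraries was left out of them. Over 175 combinations of member and comparison, 141 kept their call under every alternative run. Of 3990 alternative values 3814 kept the call, 108 lost it, 68 gained it and 0 changed the sign of a called value. The number of junction genes called in WT_GC against WT_EC was 32, with 32–35 over single libraries left out and 32–35 over the other alternatives. For SpdefKO_GC against SpdefKO_EC these were 28, 27–29 and 27–29, for SpdefKO_GC against WT_GC 17, 10–18 and 12–20, for SpdefKO_EC against WT_EC 6, 3–6 and 4–7, and for the interaction 7, 4–11 and 6–10. Where single libraries left out took a count beyond 1.5 times, the groups were 4 against 3 libraries; the cause was not tested.

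Scaling moved the median log2 change of all genes in SpdefKO_GC against SpdefKO_EC from 0.031 to 0.15 with upper-quartile factors and 0.16 without scaling, beside which 25 junction genes fell under both. The share of higher genes among all calls went from 49.7% to 60.9% and 61.9% there, from 48.3% to 33.1% and 32.7% in SpdefKO_EC against WT_EC, and from 51.2% to 59.9% and 66.1% in the interaction. Junction genes called higher and lower in SpdefKO_EC were then 2 and 4, and 3 and 4, against 3 and 3, and in the interaction 8 and 1, and 9 and 1, against 5 and 2. The lowest count of a member in WT_GC was 160, for Ceacam20.

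Some genes not called in the report passed under 1 or more alternatives. Between fractions in SpdefKO these were Cldn4, as higher in goblet cells, and Pvrl2 and Ppl, as lower. In WT they were Cldn4, Pkp2 and Ppl, all as lower in goblet cells. Cldn4 in goblet cells stood at 128.9% of the EC level in SpdefKO and 76.0% in WT. Between goblet cell groups the genes were Cgn, Cdh1, Dsg2, Cldn2 and Ceacam20. In EC it was Cldn23, as lower, with upper-quartile factors (0.0468) or no scaling (0.0398), and for the interaction Cldn4, Ocln, Marveld2, Cgn, Cdh17, Pvrl2 and Jup.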

Other observations

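Transcription factors of epithelial junctions and gut identity were measured as a further list, of which 13 of 17 genes were tested. Hnf4a, a nuclear receptor of intestinal differentiation, was lower in goblet cells in both genotypes, at 1084 ± 102 CPM in WT_EC and 387 ± 16.9 CPM in WT_GC (log2 -1.49 ± 0.070, adjusted p = 1.02e-12) and at -1.37 on the log2 scale in libraries labelled SpdefKO. Klf4 and Cdx2, factors of colon epithelial differentiation, were also lower in WT_GC, with log2 changes of -0.91 ± 0.11 and -0.66 ± 0.11. Grhl2, a Grainyhead-like activator of junction genes, did not pass in WT (log2 0.053 ± 0.076, adjusted p = 0.567), with 99.7 ± 7.48 CPM in WT_EC and 103 ± 6.497 CPM in WT_GC. In all, 6 of the 13 fell and 1 (Grhl1) rose in WT_GC.

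Between goblet cell groups 1 of the 13 passed: Ovol2, a repressor of mesenchymal genes, fell in SpdefKO_GC to 13.99 ± 1.21 CPM, where WT_GC had 18.9 ± 2.15 CPM (log2 -0.43 ± 0.10, adjusted p = 0.00413). In EC Esrp1, an epithelial splicing factor, rose with the genotype label (log2 0.29 ± 0.081, adjusted p = 0.0269). The genes of this list that did not pass the filter on low counts were Snai1, Snai2, Zeb1 and Zeb2. Snai2 had 0 counts in WT_EC, WT_GC and SpdefKO_EC, whereas Snai1, Zeb1 and Zeb2 had some counts in every group.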
